A study of Mus musculus with 5 samples.

Results

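Activated neutrophils marked by Il1a, Icam1 and Nr4a3 were 124 of the 36720 mouse cells that passed the quality limits, 14 of 19505 in one pool (YO1) and 110 of 17215 in the other (YO2). They were chosen by the counts of unique molecular identifiers (UMIs), each of which marks a captured mRNA molecule. The quality limits were a minimum of 200 UMIs and of 100 genes per cell, and a mitochondrial share of UMIs below 20%. An activated neutrophil then had at least 3 UMIs of Il1a, Icam1 and Nr4a3 added together, which is called the gate here, and at least 2% of its UMIs from the calprotectin genes S100a8 and S100a9. It also had fewer than 10 UMIs of the immature neutrophil gene Ngp, fewer than 3 of the interferon genes Ifit1, Ifit3 and Rsad2, and fewer than 2 of 5 genes of other cell types (C1qa, F13a1, Cd79a, Cd3e and Clec4g). They were compared with gate-negative neutrophils, which met the same limits but had 0 gate UMIs (9748 cells of YO1 and 8573 of YO2), and with interferon neutrophils, which had 0 gate UMIs and at least 3 UMIs of Ifit1, Ifit3 and Rsad2 (561 and 863 cells). Since the gate was set on these counts and its genes had already marked a cluster of these cells, the levels of the gate genes, of Ccrl2 and of Cxcl2 are a description with no test.

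The series compares neutrophils of several organs. Cells were sorted as DAPI-negative, CD11b-positive and Ly6G-positive from lung, liver, spleen, intestine, blood and bone marrow of C57BL/6 mice, an inbred strain, kept at steady state under specific-pathogen-free conditions. Young mice (10 weeks old by the sample labels, 8 weeks by the design text) and old mice (20 months) were pooled, the experiment was done 2 times, and each round was loaded in its own BD Rhapsody cartridge, in which cells settle in nanowells and mRNA is tagged per cell. A barcode shows its pool, while tissue and age were not assigned here, so every class above mixes organs and ages and none of them was compared by these.

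Interleukin-1 alpha (Il1a) is a cytokine that is active without cleavage and alerts nearby cells, Icam1 is an adhesion molecule for leukocyte integrins, and Nr4a3 is an orphan nuclear receptor of the immediate early class. All are known targets of signals that reach neutrophils through Toll-like, cytokine and adhesion receptors, and the first of them and Icam1 are classical targets of the transcription factor NF-kB. Activated neutrophils are known to release chemokines that recruit more neutrophils and to live longer than resting ones.

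The gate genes lie at chr2:129299610-129309972 on the minus strand (Il1a), chr9:21015985-21028817 on the plus strand (Icam1) and chr4:48045153-48086447 on the plus strand (Nr4a3) of GRCm38, and all are protein-coding. The CXC chemokine genes Cxcl3, Cxcl1 and Cxcl2, whose products attract neutrophils through Cxcr2, are neighbours on the plus strand of chromosome 5, at chr5:90786103-90789600, chr5:90891241-90893115 and chr5:90903871-90905938. The promoters of these 3 chemokines are shown because their levels were high together in the activated neutrophils of YO2, and those of Il1a and Nr4a3 because they chose the cells. Each line gives the 250 bases before the annotated start (RefSeq, GRCm38.p6), 5′ to 3′ on the gene's strand, with capitals for motif matches on either strand. Apart from Il1a, these starts differ from where the gene spans above begin. Much of the Nr4a3 line and the end of the Cxcl2 line thus lie inside the spans given. Distances below are counted from the RefSeq starts.

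Cxcl1, chr5:90890995-90891244, plus strand: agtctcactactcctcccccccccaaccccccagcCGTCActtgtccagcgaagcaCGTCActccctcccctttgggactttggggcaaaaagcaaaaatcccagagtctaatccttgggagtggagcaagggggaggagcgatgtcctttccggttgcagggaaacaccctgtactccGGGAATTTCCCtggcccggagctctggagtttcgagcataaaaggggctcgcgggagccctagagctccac

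Cxcl2, chr5:90903649-90903898, plus strand: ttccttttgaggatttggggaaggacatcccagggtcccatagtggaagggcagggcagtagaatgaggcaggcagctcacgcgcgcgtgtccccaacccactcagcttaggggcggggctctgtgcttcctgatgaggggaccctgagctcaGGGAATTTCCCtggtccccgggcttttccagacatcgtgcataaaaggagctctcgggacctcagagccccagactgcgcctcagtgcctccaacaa

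Cxcl3, chr5:90785851-90786100, plus strand: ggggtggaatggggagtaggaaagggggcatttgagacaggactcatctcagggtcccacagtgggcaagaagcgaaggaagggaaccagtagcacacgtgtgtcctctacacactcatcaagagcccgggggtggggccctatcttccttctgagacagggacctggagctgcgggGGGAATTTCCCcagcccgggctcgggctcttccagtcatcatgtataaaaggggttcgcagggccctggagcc

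Il1a, chr2:129309973-129310222, minus strand: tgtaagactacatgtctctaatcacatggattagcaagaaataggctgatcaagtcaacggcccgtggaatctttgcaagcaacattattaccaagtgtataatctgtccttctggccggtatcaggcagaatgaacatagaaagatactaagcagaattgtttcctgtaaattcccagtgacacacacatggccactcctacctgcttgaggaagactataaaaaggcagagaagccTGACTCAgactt

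Nr4a3, chr4:48045055-48045304, plus strand: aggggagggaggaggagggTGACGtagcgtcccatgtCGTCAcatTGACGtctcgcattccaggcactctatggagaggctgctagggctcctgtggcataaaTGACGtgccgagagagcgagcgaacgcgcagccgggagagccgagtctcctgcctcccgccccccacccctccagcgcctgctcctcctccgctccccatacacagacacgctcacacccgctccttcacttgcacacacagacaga

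The motifs searched in the window of 250 bases before to 50 after each start were the NF-kB consensus, the AP-1 motif TGANTCA and the cyclic AMP response half-site TGACG. A pair of overlapping NF-kB matches began 71 and 70 bases before the start of Cxcl1, 97 and 96 before that of Cxcl2 and 73 and 72 before that of Cxcl3. These matches are the long run of capitals in each of the 3 lines, and the run reads the same in all 3. NF-kB matches were present in 8.46% of 32851 such windows. The Il1a window held 1 AP-1 match, which began 12 bases before the start, and 7.81% of the windows held one. The Nr4a3 window held 4 TGACG matches, at 231, 213, 205 and 147 bases before the start, and that of Cxcl1 held 2, at 215 and 194, against 20.8% of windows with any. No match to these 3 patterns was found in the window of Icam1, and none to the NF-kB consensus in those of Il1a and Nr4a3. Sites that depart from the patterns were not searched, so this does not show that these windows lack an NF-kB site. A match is a run of letters and no evidence of binding, and no binding was measured.

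The gate was met in different ways in the pools. In YO2, Il1a was seen in 62 of 110 activated neutrophils with 315 UMIs, Icam1 in 66 with 175 UMIs and Nr4a3 in 52 with 156 UMIs. A single gate gene was seen in 49 of them, a pair in 52 and all 3 in 9. In YO1, Il1a was seen in 2 of 14 cells with 4 UMIs, Icam1 in 9 with 30 and Nr4a3 in 5 with 15, and 13 of the 14 had a single gate gene. The YO1 cells were thus mostly chosen by Icam1 or Nr4a3, and 9 of them were at the limit of 3 UMIs with none above 5. In YO2, 31 cells were at 3 UMIs, 29 at 4, 34 at 5 to 9 and 16 at 10 or more.

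**Figure D1:**
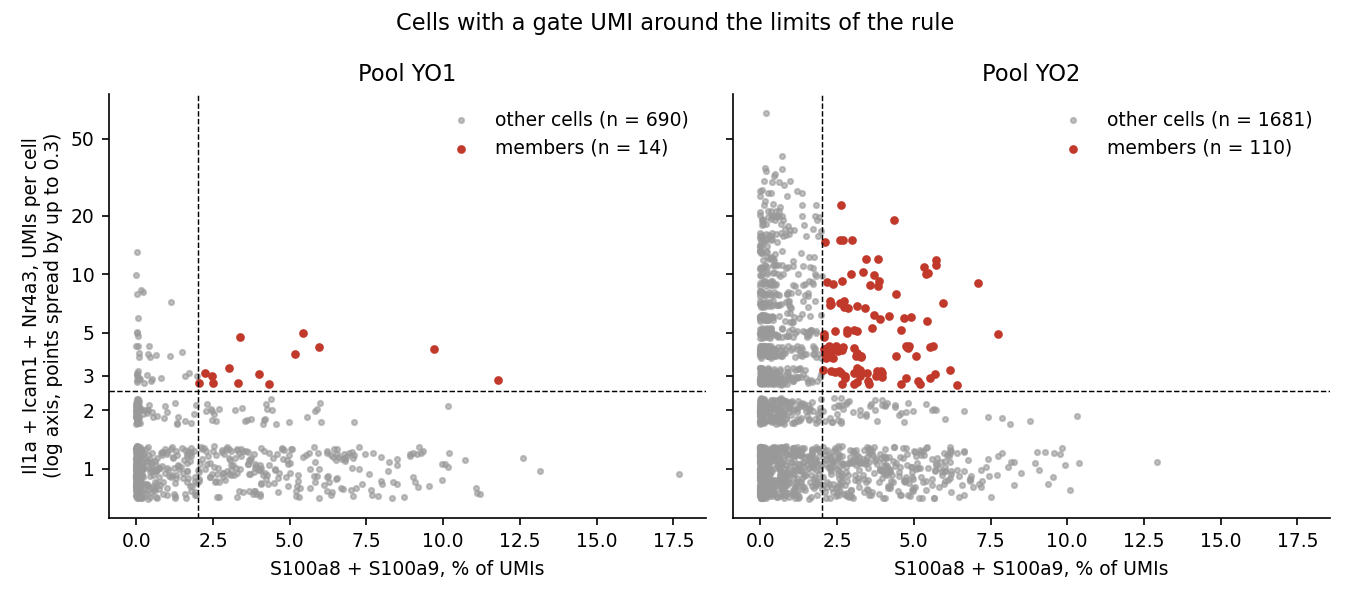
Each point is a kept cell with at least 1 gate UMI that met the limits on Ngp, interferon genes and genes of other cell types, in pool YO1 (left) or YO2 (right). The horizontal axis gives S100a8 plus S100a9 as a percentage of the cell's UMIs, the vertical axis (log) gives the gate UMIs with points spread by up to 0.3, dashed lines mark the limits (2%, and between 2 and 3 UMIs), and the 14 and 110 cells chosen, called members in the picture, are red. In YO2 many cells with at least 3 gate UMIs lie left of the 2% line.

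Just inside and just outside the limit, the level of Cxcl2 in YO2 was 11938 counts per 1e6 UMIs (CPM) in the 31 cells with 3 gate UMIs and 5191 CPM in the 53 cells with 2. Here CPM is the gene's summed UMIs per 1e6 UMIs of all the cells of a class in a pool. It was 3621 CPM in cells with 1 gate UMI and 1695 CPM in those with 0. For Ccrl2, a chemerin-binding receptor, the levels were 6632, 2129, 1385 and 327 CPM in the same order, so both genes stood higher at each step from 0 to 3 gate UMIs in YO2. In YO1, Cxcl2 was at 5128 CPM in 9 cells with 3 gate UMIs, 3142 CPM in 29 cells with 2, 2088 CPM with 1 and 1424 CPM with 0. These values were chosen with the rule and carry no test.

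The cells carried neutrophil transcripts throughout. All 12 markers of the neutrophil list were detected in the activated neutrophils of each pool, with a summed level of 59189 CPM in YO1 and 58527 CPM in YO2, against 102636 and 79244 CPM in the gate-negative cells. The list includes S100a8 and S100a9, whose minimum share the rule set in both classes. In activated neutrophils these genes were at 16887 and 23058.5 CPM in YO1 and 17491 and 19127 CPM in YO2, most of each sum. The S100a8 and S100a9 share, which the rule bounded from below, had a median of 3.69% and 3.22% of UMIs against 6.41% and 5.14%. Ly6g, whose protein was used for the sort, was seen in 2 of 14 and 5 of 110 activated neutrophils, against 13.4% and 9.73% of gate-negative cells. Markers of immature neutrophils summed to 429 and 102 CPM against 1191 and 165 CPM, on a list that includes Ngp, which the rule capped in both classes. The activated neutrophils were deeper, with medians of 1425 and 1773.5 UMIs against 1025 and 1327, and their median mitochondrial share was 2.01% in YO1 and 0.562% in YO2 against 0.486% and 0.375%. Of 406 cell labels present in both pools, none belonged to an activated neutrophil.

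Markers of several other cell types were present at low levels, and those of dendritic cells stood well above the gate-negative cells, mostly through 3 cells. The macrophage, monocyte, B cell, T and NK cell and endothelial lists each include a gene that the rule capped in both classes. The dendritic cell list of 11 genes summed to 13886.5 CPM in YO1 and 2397 CPM in YO2, against 389 and 482 CPM in gate-negative cells. In YO1, 317 of these 324 UMIs came from 1 cell, and in YO2, 338 of 564 came from 1 cell. H2-Aa and H2-Ab1 made up most of the sum. In YO2, 216 of 247 UMIs of H2-Aa and 171 of 195 of H2-Ab1 came from the 2 cells with at least 10 UMIs of the list. Xcr1, Zbtb46, Fscn1 and Siglech were at 0 in both pools. Ccr7, which migrating dendritic cells carry, had 36 UMIs, all from 2 cells of YO2 that also carried the other markers, and none in YO1. Clec9a had 1 UMI in YO2 and none in YO1, Cd209a 2 UMIs in YO1 and none in YO2, and Flt3 1 and 4 UMIs. Itgax was seen in 45 activated neutrophils of YO2 with 81 UMIs, of which 76 lay outside those 2 cells. Outside the list, Ccl22 and Il12b, which mature dendritic cells also make, were called higher on 285 and 17 UMIs from 2 cells of YO2 each. In all, 3 activated neutrophils had at least 10 UMIs of the list (1 of YO1 and 2 of YO2), and results that rest on them are given with and without them. Macrophage markers summed to 814 and 540 CPM against 619 and 596 CPM, monocyte markers to 600 and 408 CPM against 757 and 548 CPM, and B cell markers to 214 and 110.5 CPM against 143 and 170.2 CPM. Plasma cell markers summed to 42.9 and 467 CPM against 36.8 and 650.2 CPM, and eosinophil markers to 42.9 and 221 CPM against 72.1 and 60.1 CPM, where 48 of the 52 UMIs of YO2 were of Siglecf. T and NK cell, basophil, endothelial, epithelial, hepatocyte and erythroid markers gave at most 5 UMIs per pool, while fibroblast markers stood at 123 against 6.54 CPM in YO2, where all 29 UMIs came from 1 cell.

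The share of activated neutrophils differed between the pools. Among cells that met all limits but the gate, they were 14 of 10006 in YO1, or 0.140% (95% exact Clopper-Pearson interval 0.0765 to 0.235), and 110 of 9041 in YO2, or 1.22% (1.001 to 1.46), an 8.70-fold difference. The intervals do not overlap, but they cover the counting of cells only, and with 1 library per pool there is no test. After each cell was thinned to 500 UMIs, which left 9805 of these cells in YO1 and 9041 in YO2, the shares with at least 3 gate UMIs were 0.0306% and 0.299%. The fold depended on the gate and the floor: it was 4.20 with at least 2 gate UMIs, 27.7 with at least 5, 5.25 with a floor of 5% for S100a8 and S100a9, 13.7 with one of 0.5%, and 9.76 after thinning, or 1.83 after thinning with at least 1 gate UMI. As a background, 0.0312% of Ngp neutrophils in YO1 (0.00079 to 0.173) and 0.188% in YO2 (0.00475 to 1.04) had at least 3 gate UMIs, at medians of 3082 and 4245 UMIs. Of B cells, 1.24% and 1.10% had at least 3, at medians of 1519 and 3605 UMIs. After thinning, none of 399 and 911 B cells and none of 3195 and 533 Ngp neutrophils had 3, which allows shares of up to 0.920%, 0.404%, 0.115% and 0.690%. The unthinned share in YO2 was thus close to that of B cells, and the thinned share of YO2 lay inside the range that the B cells' count of 0 allows.

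The activated neutrophils of YO2 differed from gate-negative neutrophils in several groups of genes. UMIs were summed per pool and class and fitted in edgeR with the pool as a block, and genes of the rule were left out. Of 9074 genes tested, 303 (3.34%) were higher and 637 (7.02%) lower at an adjusted p under 0.05 (edgeR quasi-likelihood test, two-sided, Benjamini-Hochberg). The 14 cells of YO1 were too few for a sum of their own, so the fit rests on 1 sum of 110 cells of YO2, which was assumed to vary like the sums of the other classes. With the YO1 sum in its place, 37 genes were higher and 36 lower, and without the pool as a replicate block 183 and 241. Genes were counted in the same cells that the gate chose, so the tests name genes that go with the gate and are not independent of the earlier clustering of these cells. The p-values measure spread between sums from the same 2 libraries. The median log2 difference over all genes was -0.34, so that with scaling by total UMIs, where the median was -0.01, 384 genes (4.23%) were higher and 246 (2.71%) lower, and the values of single genes below are read against that median. All log2 differences below are of activated minus gate-negative neutrophils unless another class is named. Counts of called genes by list are read against 3.34% higher and 7.02% lower over all genes.

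The higher genes were mostly seen in many cells, but some came from 1 cell. Among these were Col1a1 and Col1a2, with 11 UMIs each, all from the cell that gave every UMI of the fibroblast list in YO2. Pdgfra, Mfap4 and Ogn also came from 1 cell each, and whether it was the same cell was not tested. No fit left out the fibroblast-marker cell alone. Of the 303, 188 (62.0%) were seen in at least 11 activated neutrophils of YO2, 71 in fewer than 5, and for 72 more than 50% of the UMIs came from 1 cell. In YO1, whose activated neutrophils did not enter the fit, 170 of the 303 were also higher in level and 120 had no UMI. Of the 637 lower genes, 510 were also lower in level in YO1, where 98 had no UMI. In YO1, 1 UMI is 42.9 CPM, so a single UMI puts a gene of low level above gate-negative cells, and a gene with none falls below. The share of all tested genes with the same direction was not computed, so these counts do not measure agreement between the pools. Without the cells with dendritic markers 233 of the 303 were still higher, and with gate-negative cells matched on UMIs 230 were. The lower genes depended more on these choices: 333 and 145 of the 637 were still called. With scaling by total UMIs 300 of the 303 and 246 of the 637 were.

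**Figure D2:**
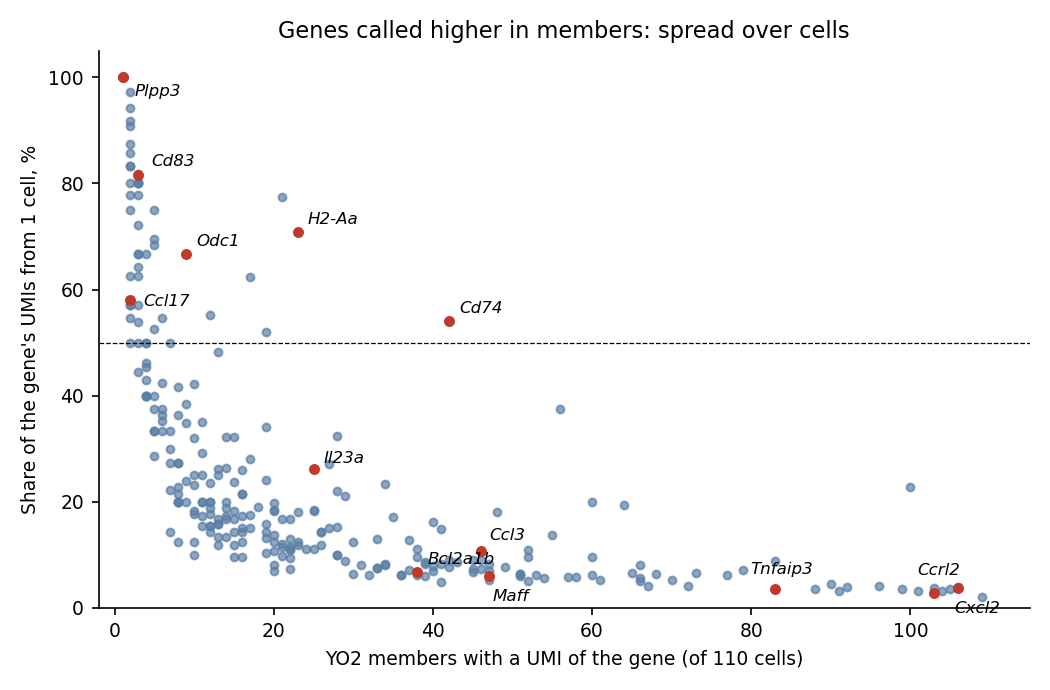
Each point is a gene called higher in activated neutrophils (n = 303). The horizontal axis gives in how many of the 110 activated neutrophils of YO2 it was seen and the vertical axis the share of its UMIs that came from 1 cell, with the dashed line at 50%. Ccrl2, Cxcl2 and Tnfaip3 came from most cells, while Cd83, Ccl17 and Plpp3 came from 3, 2 and 1 cells.

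Of 23 chemokine and cytokine genes 17 were tested, and 12 were higher and 2 lower, with a median log2 difference of 3.25 against -0.34 over all genes. The counts were the same with scaling by total UMIs, 10 of 16 were higher without the cells with dendritic markers, and the 12 include Cxcl2, one of the markers by which these cells were proposed. As a description, Cxcl2 was at 4800.3 CPM in YO1 and 13386 CPM in YO2 against 1424 and 1695 CPM, or 3.37-fold and 7.90-fold. Its YO2 UMIs came from 106 of 110 cells, while 39.3% of those of YO1 came from 1 cell.

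Its neighbours Cxcl3 and Cxcl1 were higher in YO2. Cxcl3 was at 242 CPM in YO2 against 15.7 CPM, with 57 UMIs from 17 cells, and at 0 UMIs in YO1, where a count of 0 allows up to 129 CPM. It rose by 3.59 ± 0.35 (SE) on the log2 scale (edgeR, adjusted p = 1e-05). Cxcl1 was at 110.5 against 8.15 CPM in YO2 with 26 UMIs from 6 cells, and rose by 3.76 ± 0.66 (edgeR, adjusted p = 0.0019). Whether the 2 genes were high in YO1 was not detectable at this depth.

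The CC chemokines Ccl3 and Ccl4, which attract monocytes and lymphocytes, were high in both pools. Ccl3 was at 1200.1 and 1462 CPM against 171 and 103 CPM and rose by 3.27 ± 0.43 on the log2 scale (edgeR, adjusted p = 0.00019). Ccl4 was at 1457 and 582 CPM against 93.6 and 84.6 CPM and rose by 2.37 ± 0.28 (edgeR, adjusted p = 6.1e-05). In both pools the activated neutrophils lay above the gate-negative ones, although 52.9% of the Ccl4 UMIs of YO1 came from 1 of 3 cells. Tnf, the tumour necrosis factor gene, was at 2100.1 CPM in YO1, where 51.0% of UMIs came from 1 cell, and at 306 CPM in YO2, against 58.0 and 33.6 CPM. It rose by 2.73 ± 0.29 (edgeR, adjusted p = 2.1e-05).

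Il23a, the p19 subunit of interleukin-23, had one of the steepest differences. It was at 535 CPM in YO2 with 126 UMIs from 25 cells, against 7.85 CPM, a 68.3-fold ratio, and at 42.9 CPM (1 UMI) against 4.50 CPM in YO1. The log2 difference of Il23a was 5.51 ± 0.60 (edgeR, adjusted p = 3.2e-05), and it did not pass in DESeq2 (log2 4.31, adjusted p = 0.45). Cxcl10, the interferon-inducible ligand of Cxcr3, was at 900.1 and 195 CPM against 6.61 and 6.77 CPM and rose by 4.29 ± 0.54 (edgeR, adjusted p = 0.00012), with 66.7% of YO1 UMIs from 1 cell. Vegfa, the vascular growth factor, was at 289 against 51.5 CPM in YO2 and at 42.9 CPM on both sides in YO1. Cxcl16, Tnfsf9 and Hbegf were also called but came from 5, 3 and 3 cells of YO2, and without the cells with dendritic markers Cxcl16 lost its call (log2 1.86, edgeR adjusted p = 0.46) and Tnfsf9 was not tested. The 2 lower genes were Ccl6, at 2786 and 1848 CPM against 5128 and 4232 CPM, and Tnfsf14 (LIGHT), at 171 and 63.7 CPM against 183 and 216 CPM.

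**Figure D3:**
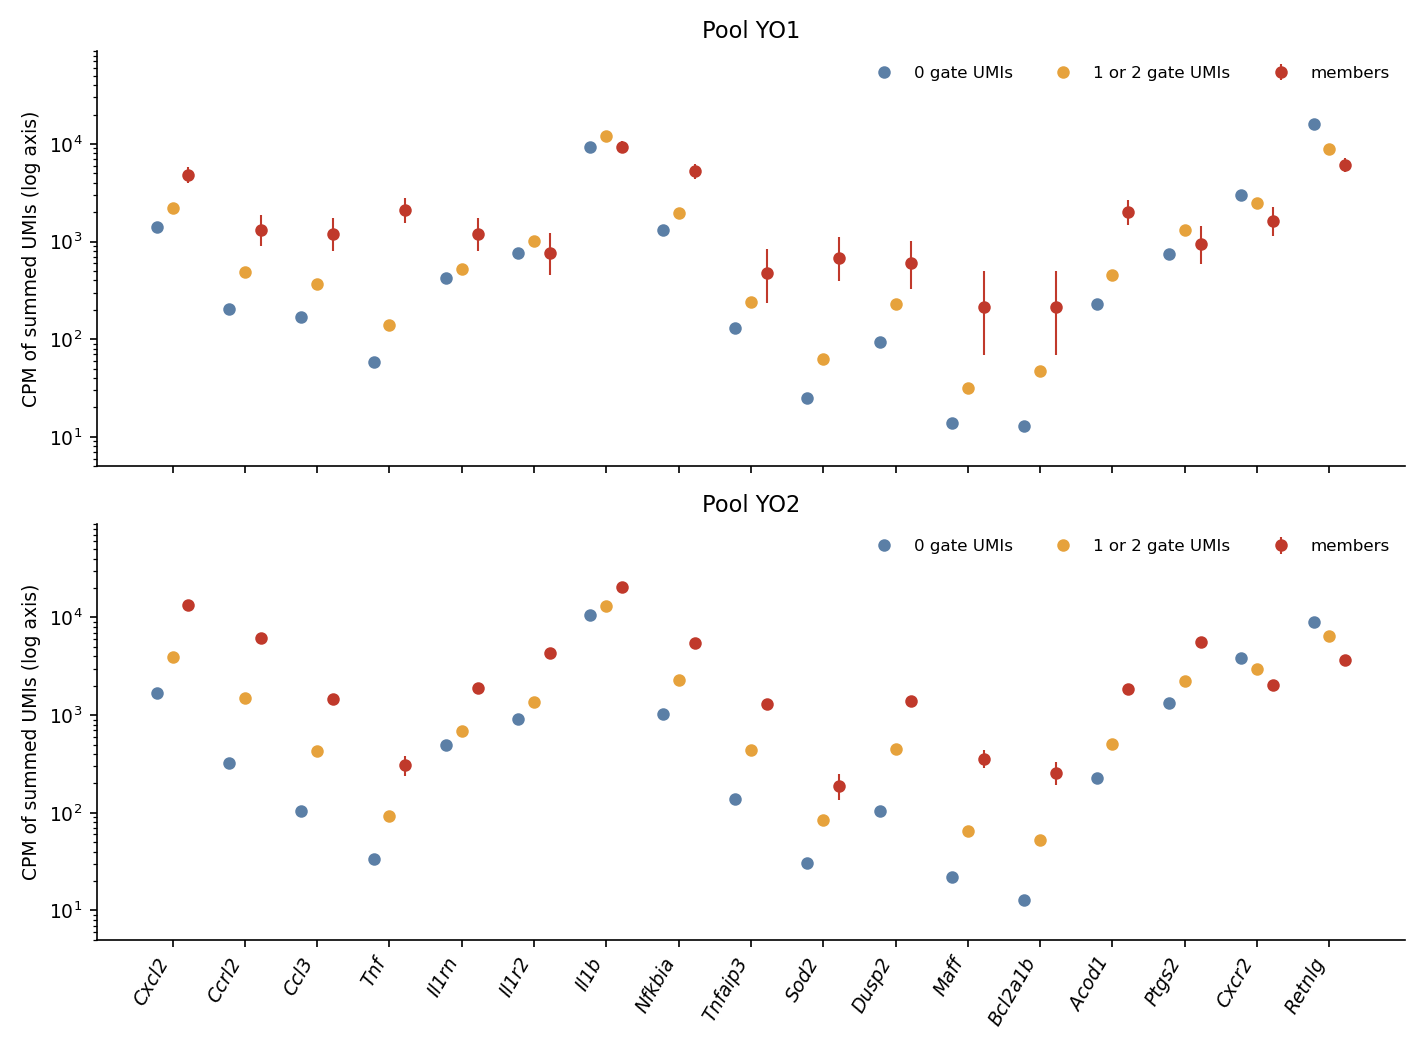
Levels of 17 genes in gate-negative neutrophils (blue), cells with 1 or 2 gate UMIs (orange) and activated neutrophils (red) of YO1 (top) and YO2 (bottom), as CPM of summed UMIs on a log axis, with 95% Poisson counting intervals on the red points only. In YO2 cells with 1 or 2 gate UMIs lie between the other classes for each gene shown. In YO1 Il1r2, Il1b and Ptgs2 do not show this order.

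Il1rn and Il1r2, which restrain interleukin-1, and the kinase Irak2 rose, while its other ligand Il1b did not pass. Of 14 tested genes of the interleukin-1 pathway 3 were higher and 2 lower, with a median of -0.69 (-0.34 with Il18, which had no UMI in YO2, at the bound that a count of 0 allows), and with total UMIs 4 and 0. Il1rn, the receptor antagonist, was at 1200.1 and 1908 CPM against 420.1 and 499 CPM and rose by 1.53 ± 0.18 on the log2 scale (edgeR, adjusted p = 8.1e-05), higher in both pools. Il1r2, the decoy receptor, was at 4326 against 912 CPM in YO2 and at 771 against 769 CPM in YO1. It rose by 1.86 ± 0.21 (edgeR, adjusted p = 5.3e-05), a difference that the 14 cells of YO1 did not share: with their sum in place of that of YO2 it was -0.42. Irak2, an adaptor kinase of the receptor, was at 171 and 170.0 CPM against 35.4 and 42.1 CPM, with 4 UMIs in YO1. Il1b was seen in all 124 cells, at 9343 and 20504 CPM against 9400.5 and 10687 CPM, and its log2 difference of 0.48 ± 0.36 did not pass (edgeR, adjusted p = 0.46). The adaptor Myd88 and Il18rap were the lower genes (log2 -0.90 and -1.13), and neither was called with total UMIs.

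Of the NF-kB subunits and feedback genes, 22 were tested, of which 11 were higher and none lower, with a median of 0.94, and with total UMIs 14 were higher. At an unadjusted p under 0.05 the list had 16 genes. Birc3, an inhibitor of apoptosis on this list, rose by 0.91 with UMIs from 41 cells of YO2. Nfkbia, the inhibitor IkB-alpha, was at 5229 and 5461 CPM against 1316 and 1034 CPM, so that the activated neutrophils of both pools stood at nearly the same level. It rose by 1.94 ± 0.22 on the log2 scale (edgeR, adjusted p = 4.9e-05). Tnfaip3 (A20), a deubiquitinase that limits the pathway, was at 471 and 1313 CPM against 132 and 139.8 CPM and rose by 2.77 ± 0.25 (edgeR, adjusted p = 5.7e-06), with UMIs from 83 cells of YO2. Nfkbie was at 171 and 212 CPM against 21.7 and 24.8 CPM, and Nfkbib at 171 and 149 CPM against 29.9 and 29.7 CPM, both with only 4 UMIs in YO1.

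Sod2, the mitochondrial superoxide dismutase, was at 686 and 187 CPM against 25.04 and 30.6 CPM, with 50% of the 16 UMIs of YO1 from 1 cell. Nfkbid, an atypical inhibitor, was at 300.0 and 1067 CPM against 260.1 and 281 CPM and so was high in YO2 only. Traf1, a signalling adaptor, was at 115 against 5.85 CPM in YO2 and had no UMI in YO1. Of the subunits, Relb (log2 1.71 ± 0.46) and Nfkb1 (0.97 ± 0.29) were called, and Relb lost its call without the cells with dendritic markers (log2 1.34, edgeR adjusted p = 0.18). Rel did not pass (0.77 ± 0.31, edgeR adjusted p = 0.13), nor did Nfkbiz (1.07 ± 0.45, adjusted p = 0.15).

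Immediate early genes divided. Of 31 tested 8 were higher and 4 lower, with a median of 0.20, and with total UMIs 10 and 1. Nr4a1 and Nr4a2 on the list are relatives of Nr4a3, and Nr4a2 rose by 4.21 ± 0.61 on the log2 scale. Nr4a2 was at 93.5 against 4.0 CPM in YO2 with 22 UMIs from 8 cells, and had no UMI in YO1. Nr4a1 was at 2914 and 3446 CPM against 961 and 1075 CPM, about the same ratio in each pool (3.03 and 3.21), but did not pass (1.14 ± 0.42, edgeR adjusted p = 0.097). Dusp2, a phosphatase of MAP kinases, was at 600.0 and 1407 CPM against 92.8 and 105 CPM and rose by 3.26 ± 0.24 (edgeR, adjusted p = 6.8e-07). Maff, a small Maf transcription factor, was at 214 and 357 CPM against 13.9 and 22.2 CPM and rose by 3.63 ± 0.27 (edgeR, adjusted p = 6.8e-07). Gadd45b, a stress-response protein, was at 771 and 1483 CPM against 147 and 158 CPM. All 3 were higher in both pools.

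Bhlhe40, a transcriptional repressor that controls cytokine genes, was at 85.7 and 344 CPM against 15.9 and 15.5 CPM. Egr3 and Crem were called on 20 and 23 UMIs in YO2. Dusp5, another phosphatase of the family, was at 471 and 625 CPM against 204 and 221 CPM. The lower genes were Klf2 and Klf6, Krüppel-like factors, with Ier2 and Gadd45a. Klf2 was at 2014 CPM in YO1 and 901 CPM in YO2 against 1928 and 1736 CPM, so it was low in YO2 only, and of the 4 just Ier2 was still called with total UMIs. The AP-1 gene Fos was at 2700.2 and 4832 CPM against 3494 and 5172 CPM and did not pass (log2 -0.56 ± 0.41, edgeR adjusted p = 0.45). Junb did not pass (-0.05 ± 0.28, edgeR adjusted p = 0.94), and Egr1 was at 1500.1 against 419 CPM in YO1 but 977 against 1204 CPM in YO2.

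Surface genes of activation were higher in 10 of 23 tested cases and lower in 1, with a median of 0.86, and with total UMIs in 12 and 0. Ccrl2, which is counted among the 10 but given with no test, was at 1329 and 6123 CPM against 203 and 327 CPM, or 6.54-fold and 18.7-fold, with UMIs from 8 of 14 and 103 of 110 cells. Cd274 (PD-L1), a ligand that restrains T cells, was at 600.0 and 433 CPM against 59.0 and 69.0 CPM and rose by 2.32 ± 0.30 on the log2 scale (edgeR, adjusted p = 0.00018). Clec4e (Mincle), a lectin that senses microbes and dead cells, was at 3000.2 and 2711 CPM against 819 and 1061 CPM and rose by 0.91 ± 0.23 (edgeR, adjusted p = 0.019). Olr1 (LOX-1), a scavenger receptor, was at 85.7 and 170.0 CPM against 4.76 and 6.92 CPM. In YO1 its 2 UMIs came from 1 cell.

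The costimulatory gene Cd80 was at 276 against 52.6 CPM in YO2 with UMIs from 42 cells, and at 42.9 against 41.9 CPM in YO1. Cd69, an early activation antigen, was at 123 against 11.2 CPM in YO2, with 55.2% of 29 UMIs from 1 cell. Cd83, Cd40 and Cd86, which mature dendritic cells also carry, came from 3, 2 and 3 cells of YO2. Without the cells with dendritic markers Cd83 and Cd86 were not called (log2 1.73 and -1.51, edgeR adjusted p = 0.42 and 0.55) and Cd40 was not tested. Cd44, the hyaluronan receptor, was the lower gene (log2 -0.71 ± 0.21) and lost its call with total UMIs.

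**Figure D4:**
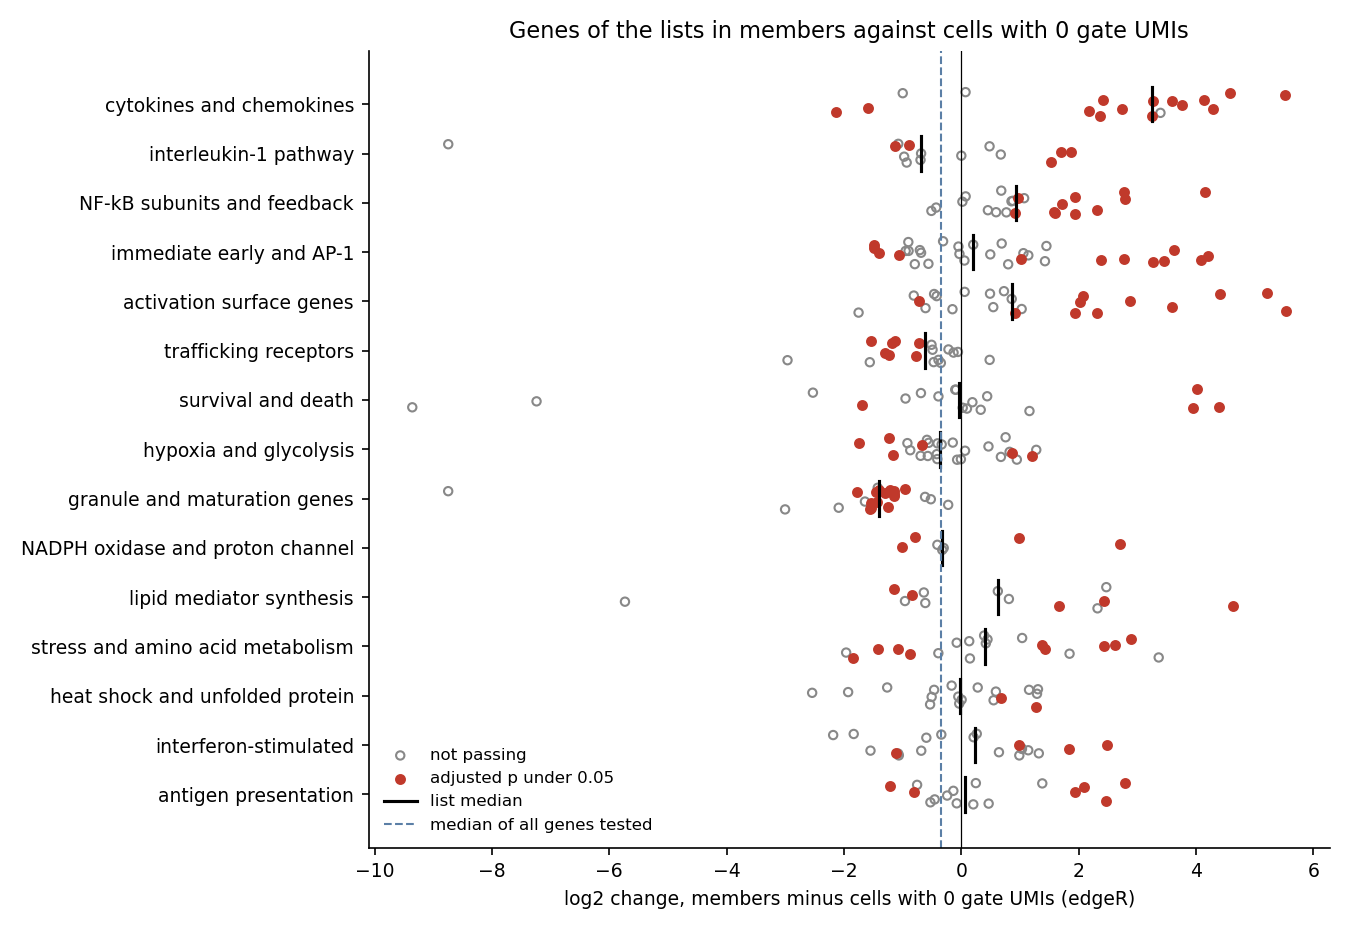
Log2 differences of activated minus gate-negative neutrophils (edgeR) for the tested genes of 15 lists, 1 point a gene, filled red where the adjusted p was under 0.05. The open points below -5 are genes with no UMI in the activated neutrophils of YO2. Black bars are list medians, and the dashed line is the median of all genes tested (-0.34). Filled points of the chemokine, NF-kB and surface lists lie mostly to the right and those of the granule and trafficking lists to the left.

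Trafficking receptors were lower where they were called. Of 18 tested 7 were lower and none higher, with a median of -0.62 against -0.34 over all genes, and with total UMIs 5 were lower and 1 higher. Cxcr2, the receptor for the chemokines above, was at 1629 and 2057 CPM against 2972 and 3854 CPM and fell by 1.23 (SE 0.22, edgeR, adjusted p = 0.0019). It was low in each pool. Selplg, a selectin ligand, was at 729 and 1045 CPM against 1857 and 1985 CPM. Csf3r, the receptor of granulocyte colony-stimulating factor, was at 1419 against 2457 CPM in YO2 but 2014 against 2172 CPM in YO1. Itgal was low in YO2 only, and Itgb2 and Fpr1 were called but not with total UMIs. Against gate-negative cells matched on UMIs, Csf3r and Itgal lost their calls too (edgeR, adjusted p = 0.15 and 0.12). Cxcr4, a retention receptor of the marrow, did not pass (log2 -0.49 ± 0.20, edgeR adjusted p = 0.14).

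Granule and maturation genes fell in 14 of 22 tested cases and none was higher, with a median of -1.41 (-1.35 with Itgb2l, which had no UMI in YO2, at its bound), and with total UMIs 10 were lower. Retnlg, a resistin-like protein of mature neutrophils, was at 6129 and 3684 CPM against 15879 and 9018 CPM and fell by 1.78 on the log2 scale (SE 0.25, edgeR, adjusted p = 0.00039). Mmp8, the neutrophil collagenase, was at 300.0 and 591 CPM against 2073 and 1219 CPM and fell by 1.56 (SE 0.27, edgeR, adjusted p = 0.0018). Lcn2, which binds bacterial siderophores, was at 1543 and 667 CPM against 2430.2 and 1361 CPM, and Pglyrp1, a peptidoglycan-binding protein, at 1714 and 1016 CPM against 2489 and 2093 CPM. Lyz2 (lysozyme) was at 3086 and 2409 CPM against 5928 and 3803 CPM. These 5 were low in both pools, and Lyz2 lost its call without the cells with dendritic markers (edgeR, adjusted p = 0.057). Wfdc17 was low in YO2 (671 against 1398 CPM) but high in YO1 (1843 against 881 CPM), and was not called with total UMIs. Mmp9, the gelatinase, did not pass (log2 -0.62 ± 0.22, edgeR adjusted p = 0.092). The rule required a minimum share of S100a8 and S100a9 in every cell, and that share was lower in the activated neutrophils, so whether the granule genes move with it was not tested.

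Of 18 genes of survival and death tested 3 were higher, all of the A1 family, and 1 was lower. Over all genes tested 3.34% were higher and 7.02% lower. Bcl2a1a, Bcl2a1b and Bcl2a1d, which block cell death and lie within 1 region of chromosome 9, were at 149, 255 and 280.5 CPM in YO2 against 5.38, 12.8 and 14.1 CPM. They rose by 4.39 ± 0.51, 3.95 ± 0.34 and 4.02 ± 0.34 on the log2 scale (edgeR, adjusted p = 5.5e-05, 2.8e-06 and 2.8e-06). In YO1 Bcl2a1b was at 214 against 13 CPM with 5 UMIs from 5 cells, Bcl2a1a had 1 UMI and Bcl2a1d none. These genes are near-identical copies, and how reads were divided among them is not given in the sources used here, so their values are uncertain one by one. Bid, which promotes death, was the lower one, on 8 UMIs in YO2, and Mcl1 did not pass (log2 -0.69 ± 0.27, edgeR adjusted p = 0.12). With the YO1 sum included 4 of 17 were higher, the fourth being Bax, which promotes death.

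Higher lipid mediator genes included both cyclooxygenases, where over all genes tested 3.34% were higher and 7.02% lower. Of 13 tested 3 were higher and 2 lower, with a median of 0.62 (0.81 with Alox15, which had no UMI in YO2, at its bound). Ptgs2, the inducible cyclooxygenase, was at 943 and 5562 CPM against 746 and 1333 CPM and rose by 1.67 ± 0.28 on the log2 scale (edgeR, adjusted p = 0.0013), with a ratio of 1.26 in YO1 and 4.17 in YO2. Ptgs1, the constitutive one, was at 149 against 21.1 CPM in YO2 and had no UMI in YO1. Ltc4s, leukotriene C4 synthase, was at 157 against 5.31 CPM in YO2, with 37 UMIs from 22 cells, and rose by 4.63 ± 0.50 (edgeR, adjusted p = 2.7e-05). It too had no UMI in YO1. Alox5ap, the activator of 5-lipoxygenase, was at 1629 and 1687 CPM against 2526 and 2931 CPM and so was low in both pools, while Alox5 was not called with total UMIs.

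Stress and metabolic genes went both ways, with 5 of 20 higher and 4 lower (median 0.40), against 3.34% and 7.02% of all genes tested. Acod1, the enzyme that makes itaconate, was at 2014 and 1866 CPM against 228 and 226 CPM, with ratios of 8.85 and 8.26 that were nearly equal in the pools, and rose by 2.62 ± 0.26 on the log2 scale (edgeR, adjusted p = 1.6e-05). Slc3a2, the heavy chain of amino acid transporters, was at 612 against 88.1 CPM in YO2 and had 1 UMI in YO1. Txnrd1 and Sqstm1, both of the oxidative stress response, were at 157 and 769 CPM in YO2 against 46.4 and 235 CPM. Odc1, which starts polyamine synthesis, lost its call without the cells with dendritic markers (log2 1.56, edgeR adjusted p = 0.068). Slc40a1, the iron exporter, was at 225 against 660.2 CPM in YO2 and fell by 1.85 (SE 0.22, edgeR, adjusted p = 8.1e-05), but stood at 514 against 505 CPM in YO1. Hmox1, the haem oxygenase, was low in YO2 (76.5 against 164 CPM) and high in YO1 (729 against 174 CPM), where 76.5% of its UMIs came from 1 cell.

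Of 26 hypoxia and glycolysis genes 2 were higher (Hk2 and Pgam1) and 4 lower (Pkm, Gpi1, Pfkfb4 and Ndrg1), with a median of -0.37, close to that of all genes. Neither Hk2 nor Pgam1 had a UMI in the activated neutrophils of YO1. For this list and those of heat shock and the NADPH oxidase, the shares over all genes were 3.34% higher and 7.02% lower. Ndrg1, a target of hypoxia, fell by 1.74 (SE 0.32, edgeR, adjusted p = 0.0028), at 55.2 against 154 CPM in YO2. Of 18 heat shock and unfolded protein genes 2 were higher and none lower. These were Ppp1r15a, which reverses the stress block of translation, at 1372 and 1585 CPM against 483 and 452 CPM (DESeq2 adjusted p = 0.16), and Calr, which was not called without the cells with dendritic markers (edgeR, adjusted p = 0.72). Of 7 genes of the NADPH oxidase and its proton channel, 2 were higher and 2 lower. Ncf1, an organizer subunit, was at 986 and 1368 CPM against 802 and 485 CPM and rose by 0.99 ± 0.22 (edgeR, adjusted p = 0.0097). Hvcn1, the proton channel, was the other higher gene, on 6 UMIs from 5 cells of YO2. Rac2, the small GTPase of the complex, was at 2057 and 2023 CPM against 2962 and 2694 CPM and fell by 0.79 (SE 0.21, edgeR, adjusted p = 0.022). It lost its call with total UMIs and without the cells with dendritic markers (edgeR, adjusted p = 0.088 and 0.11).

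Interferon-stimulated genes outside the rule were higher in 3 of 20 tested cases and lower in 1, with a median of 0.24. The shares over all genes tested were 3.34% and 7.02%. Gbp2, a guanylate-binding protein, was at 1286 and 408 CPM against 77.1 and 85 CPM, and 60% of YO1 UMIs and 32.3% of YO2 UMIs came from 1 cell each. Ifi47 was at 386 and 178 CPM against 18.8 and 27.0 CPM. Both were higher in each pool. Irf1 did not pass (log2 0.21 ± 0.23, edgeR adjusted p = 0.64), nor did Isg15 (0.64 ± 0.41, adjusted p = 0.38). The rule kept out cells with at least 3 UMIs of Ifit1, Ifit3 and Rsad2 from both classes.

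Class II antigen presentation genes were high through few cells. Of 16 antigen presentation genes 4 were higher and 2 lower, with a median of 0.06, against 3.34% and 7.02% of all genes tested. H2-Aa, H2-Ab1, H2-Eb1 and Cd74 were at 1049.6, 829, 701 and 1415 CPM in YO2 against 175, 178, 95 and 355 CPM. In YO2, 1 cell gave 70.9%, 77.4%, 62.4% and 54.1% of these UMIs, and in YO1 1 cell gave 99.3%, 97.5%, 100% and 96.4%. Without the cells with dendritic markers H2-Aa, H2-Ab1 and H2-Eb1 were not called (log2 0.78, 0.63 and 1.10, edgeR adjusted p = 0.19, 0.41 and 0.22), and Cd74 still was (log2 1.19, adjusted p = 0.015). The class I genes H2-D1 and H2-Q10 were the lower ones, and of these H2-Q10 was still called with total UMIs.

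Over all genes with a mean of at least 20 CPM and the same direction in both pools, numbered gene models and ribosomal and mitochondrial genes skipped, the 15 largest rises were led by genes of few cells. Ccl17, a chemokine of dendritic cells, had a log2 difference of 9.64 ± 0.63 (edgeR, adjusted p = 2.7e-07), but its 186 UMIs of YO2 came from 2 cells and its 25 UMIs of YO1 from 1 cell, and it was not tested without the cells with dendritic markers. Plpp3 came from 1 cell in each pool, and Pkib from 3 and 1. Il23a, Cd83, Olr1, Cxcl10, Cxcl16, Bhlhe40, Bcl2a1a and Bcl2a1b, described above, were also among the 15. Ffar2, the receptor for short-chain fatty acids, was at 129 and 161 CPM against 6.26 and 3.92 CPM and rose by 4.61 ± 0.56 (edgeR, adjusted p = 8.3e-05), with UMIs from 19 cells of YO2. Gpr84, a receptor for medium-chain fatty acids, was at 42.9 and 59.5 CPM against 1.76 and 2.15 CPM and rose by 4.41 ± 0.61 (edgeR, adjusted p = 0.00031) on 14 UMIs from 8 cells of YO2 and 1 of YO1. Gbp5, which takes part in inflammasome assembly, came from 4 cells of YO1 and 6 of YO2, and Mllt6 from 3 and 10.

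The 10 largest falls were of genes with 1 to 5 UMIs in the 110 cells of YO2. They were Ccdc180, Mkl1, Ric8a, Apobec1, Arfip1, Prkaa1, Fbxw7, Rfx2, Tmem167b and Zfp516, with log2 differences from -4.02 to -2.50. Apobec1, the RNA-editing deaminase, was at 42.9 and 21.2 CPM against 119 and 126 CPM (edgeR, adjusted p = 0.0013). Of the others, Ccdc180, Mkl1, Ric8a, Arfip1 and Prkaa1, a catalytic subunit of AMP-activated kinase, were still called with total UMIs. Fbxw7, Rfx2, Tmem167b and Zfp516 were not.

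Against interferon neutrophils 294 of 9008 tested genes (3.26%) were higher in the activated neutrophils and 451 (5.01%) lower (edgeR, adjusted p under 0.05), with a median log2 difference of -0.15. With total UMIs 344 (3.82%) were higher and 248 (2.75%) lower, with the YO1 sum in place of the YO2 sum 32 and 54, without the replicate block 170 and 179, and without the interferon sum of YO2 113 and 218. The counts by list were close to those against gate-negative cells: 11 of 17 chemokine and cytokine genes and 12 of 22 NF-kB genes were higher, and 11 of 22 granule genes and 5 of 18 trafficking genes were lower. The 2 comparisons use the same activated cells, so the similarity is no independent result. Cxcl2 was at 1474 and 1598 CPM in the interferon neutrophils and Ccrl2 at 298 and 367 CPM, near the levels of gate-negative cells. Acod1 was at 378 and 301 CPM there, and the log2 difference was 2.16 ± 0.30 (edgeR, adjusted p = 0.00043). Rgs1, a regulator of G-protein signals, and Sdad1 joined the 15 largest rises. Of the 125 Rgs1 UMIs of YO2, from 27 cells, 34 came from 1 cell. Part of the Rgs1 level rests on the 2 cells of YO2 with dendritic markers, as given below, and its log2 difference without them is not given here. Rgs1 was at 85.7 and 531 CPM in activated neutrophils and 11.8 and 31.7 CPM in interferon neutrophils, with a log2 difference of 3.98 ± 0.43 (edgeR, adjusted p = 5.1e-05).

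Several genes raised against gate-negative cells did not differ detectably from interferon neutrophils. Cd274 was at 182 and 153 CPM in interferon neutrophils against 600.0 and 433 CPM in activated ones (log2 1.07 ± 0.34, edgeR adjusted p = 0.065). For Gbp2 the levels were 383 and 332 CPM in interferon neutrophils against 1286 and 408 CPM, and it did not pass (log2 -0.19 ± 0.35, edgeR adjusted p = 0.82). Cxcl10 did not pass either (1.94 ± 0.64, edgeR adjusted p = 0.08). Of 20 interferon-stimulated genes 11 were lower and none higher in activated neutrophils, a direction that the choice of the interferon class fixes. Isg15 was at 171 and 251 CPM against 1105 and 727 CPM, and Slfn5 at 171 and 46.7 CPM against 942 and 878 CPM. Parp12 and Ace had no UMI in activated neutrophils, for which a count of 0 allows 12.7 CPM in YO2, against 48.5 and 34.9 CPM in interferon neutrophils of YO2.

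The activated neutrophils of YO2 were not uniform. When split by the gate gene with most UMIs, Il1a led in 47 cells, Icam1 in 30, Nr4a3 in 25 and none in 8, with median depths of 1753, 1848.5 and 1696 UMIs. The 14 cells of YO1 were too few to split, so these values are a description of 1 library with no test, and they are given in the order Il1a, Icam1 and Nr4a3. Ccl4 was at 1067, 182 and 32.3 CPM, Cxcl3 at 468, 60.6 and 32.3 CPM, and Tnf at 468, 152 and 48.5 CPM. Ccl3 was at 2668, 758 and 517 CPM and Cxcl2 at 17938, 8307 and 10846 CPM. These chemokines and cytokines were highest where Il1a led. The cells led by Nr4a3 include 2 with dendritic markers. Without these, Cxcl2 was at 14122 CPM and Ccl3 at 559 CPM in that group, still below the levels where Il1a led.

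Other genes had another order. Irf1 (686, 1046 and 275 CPM), Gbp2 (479, 712 and 64.7 CPM) and Cd274 (359, 637 and 210.1 CPM) were highest where Icam1 led, but their counting intervals overlapped with those where Il1a led. Other interferon-related genes had their highest value where Il1a led: Cxcl10 was at 305 and 258 CPM with no UMI where Nr4a3 led, which allows 48.5 CPM, Isg15 at 294, 273 and 178 CPM and Oasl2 at 457, 379 and 356 CPM. The intervals of Isg15 and Oasl2 overlapped in all 3 groups. Rgs1 was at 392.1, 243 and 1115 CPM and Pmaip1, which promotes cell death, at 98.0, 227 and 453 CPM. Both cells of YO2 with dendritic markers were among the 25 led by Nr4a3. Without these cells Rgs1 was at 279 CPM and Pmaip1 at 301 CPM there, and the intervals overlapped with those where Icam1 led. Nfkbia was at 6981, 5229.97 and 2893 CPM and Ccrl2 at 8092, 5215 and 3637 CPM, both highest where Il1a led. Without the 2 cells with dendritic markers Ccrl2 was at 4815 CPM where Nr4a3 led, and its interval overlapped with that where Icam1 led. Retnlg was lowest where Il1a led, at 2287, 6018 and 3831 CPM. Bcl2a1b varied less, at 305, 197 and 291 CPM, with overlapping counting intervals. Median gate UMIs were 6, 4 and 4, so the cells led by Il1a also had more gate UMIs at the median, and the part of that in these differences was not tested.

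**Figure D5:**
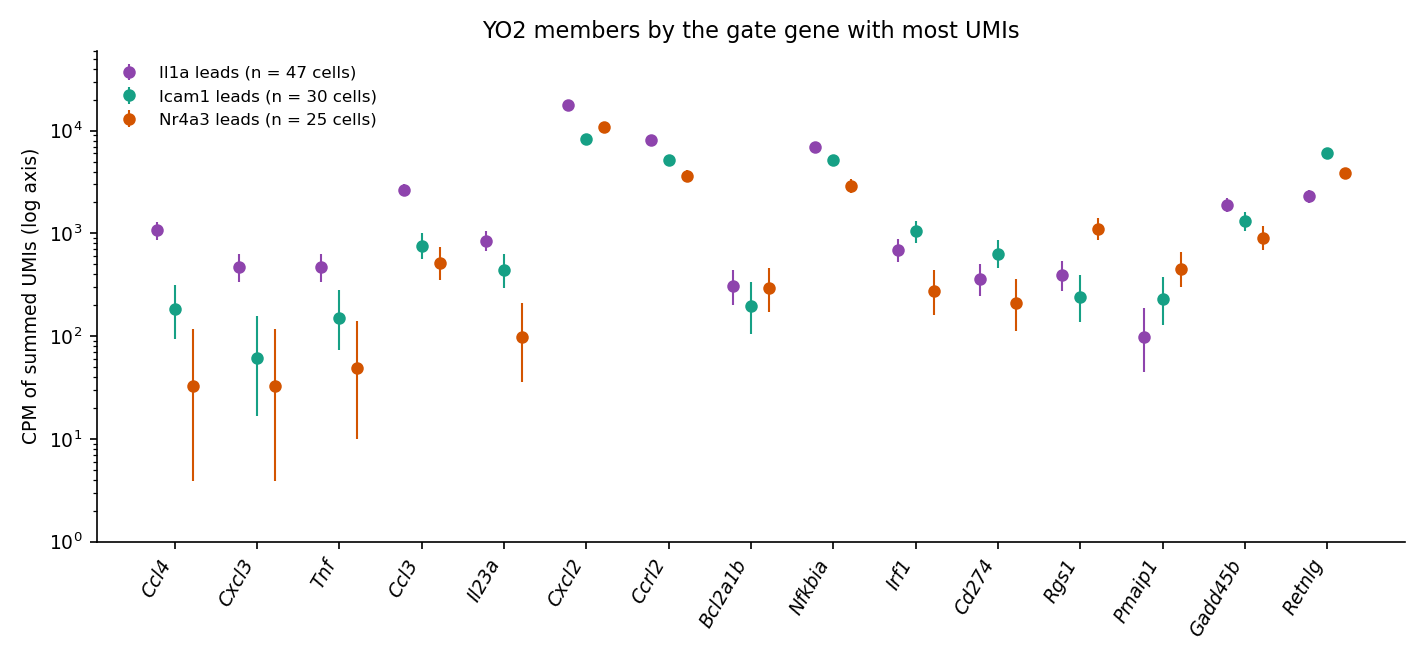
Levels of 15 genes in the activated neutrophils of YO2 split by the gate gene with most UMIs, as CPM of summed UMIs on a log axis, with 95% Poisson intervals that cover counting error only. Il1a led in 47 cells, Icam1 in 30 and Nr4a3 in 25. Ccl4, Cxcl3 and Tnf are highest in the first group, and Irf1 and Cd274 in the second, where their intervals overlap with the first. The high Rgs1 value of the third group rests on 2 cells with dendritic markers.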

How the data were processed

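Values were whole-number UMI counts per gene and cell barcode, deposited by the authors as a single matrix with 38072 barcodes and 21995 genes. The start of each barcode label gives its pool (YO1 or YO2). Reads of 60 and 42 bases were aligned to build mm10, per the submitters' processing notes, and the aligner and the counting settings were not given in the sources used here. Sample tags and antibody oligos were not analysed here, and 0 columns of other samples were found. No doublet caller was run. In place of one, the 5% of cells with most UMIs were left out as an alternative.

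UMIs were summed per pool for 5 classes (activated, 1 to 2 gate UMIs, gate-negative, interferon, Ngp), sums of under 30 cells were left out, and the 9 sums were fitted with edgeR 4.0.16 in R 4.3.3 (TMM, filterByExpr, quasi-likelihood test, Benjamini-Hochberg over all genes tested). The pool was a block because sums of 1 pool come from the same library. The 14 genes of the rule were not tested. The fit had 3 residual degrees of freedom. DESeq2 1.42.0 was an alternative, with other gates, depth matching and scalings. Standard errors are the log2 difference divided by the square root of the F statistic. Each class sum of YO2 activated neutrophils is 1 sample, so no SD between samples is given for it. CPM, shares and intervals were computed in Python 3.11.15 with scipy 1.17.1, and the intervals cover counting error only.

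On simulated counts for this comparison (8185 genes), 18 of 95 genes changed by 1 log2 unit, 42 of 89 changed by 2 and 4 of 8001 unchanged genes were called. All simulated sums shared the same profile and the same spread, and single cells were not simulated. These counts thus do not test whether the sum of activated neutrophils varies like those of the other classes. Named genes were those of the lists plus the 15 highest and 10 lowest with a mean of at least 20 CPM and the same direction in both pools. The members, lists and named-gene rules were chosen with earlier results of these data known. The deposited counts hold 39713846 UMIs in YO1 and 41839786 in YO2. The values of some genes on the lists are not reported here.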

Additional observations from a re-analysis of the deposited data

Results flagged for a closer look

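Cells that failed only the floor for S100a8 and S100a9 carried a strong Cxcl2 level. In YO2, 557 cells met every limit but had under 2% of their UMIs from S100a8 and S100a9 and at least 3 gate UMIs, and their Cxcl2 level was 10845 CPM, against 1411 CPM in 3253 cells under 2% with 0 gate UMIs. Their median depth was 1590 UMIs against 1379. Of the comparisons above, those with a floor of 0.5% use 206 of these cells and the others none. Within the gate, Cxcl2 was at 8780 CPM in 351 cells under 0.5%, at 16297.5 CPM in 206 cells of 0.5% to 2%, at 16715 CPM in 44 cells of 2% to 3% and at 11626 CPM in 66 cells of at least 3%. The 351 cells lay far below the floor, and whether the cells under 2% were neutrophils was not tested. Among cells under 2%, Ccrl2 was at 5613 against 570 CPM, Nfkbia at 4580 against 1051 CPM, Il1b at 13872 against 5460 CPM and Retnlg at 296 against 1007 CPM. In YO1, 37 such cells had Cxcl2 at 494 CPM against 448 CPM, at a median of 5257 UMIs. The class II gene Cd74 stood at 3727 against 5819 CPM in the YO2 cells under 2%.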

How the results depend on the processing

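Against gate-negative neutrophils, the count of 303 higher genes was within 1.5 times under most alternatives, while the count of 637 lower genes moved with most of them (edgeR, adjusted p under 0.05, unless DESeq2 is named). Lower genes numbered 205 with DESeq2, 246 with total UMIs, 150 with cells matched on UMIs, 409 in cells of at least 1000 UMIs, 307 without the 5% of cells with most UMIs, 337 without dendritic-marker cells, 359 with the YO1 sum included, 418 with both of the last changes, 333 with at least 2 gate UMIs and 412 with at least 5. With a floor of 0.5% for S100a8 and S100a9, 526 genes were higher. Without the replicate block for the pool, 183 were higher and 241 lower, and with only the 2 classes compared and the YO1 sum included 139 and 34. Leaving out 1 sum of activated or gate-negative cells in turn gave 37 to 306 higher and 36 to 508 lower genes, and the low end is the fit in which the 14 cells of YO1 stood for the class.

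Against interferon neutrophils (294 higher, 451 lower), lower genes numbered 235 with DESeq2, 248 with total UMIs, 267 with matched cells and 681 with the 0.5% floor, and higher genes 183 with at least 5 gate UMIs. Without the replicate block 170 were higher and 179 lower, and with 2 classes 162 and 89. Leaving out 1 sum gave 32 to 192 higher and 54 to 323 lower, and without the interferon sum of YO2 these were 113 and 218.

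The share of activated neutrophils in YO1 and YO2 was 0.0200% and 0.553% with at least 5 gate UMIs, 0.430% and 1.80% with at least 2, 0.0741% and 0.389% with a 5% floor, 0.0306% and 0.299% after thinning, and 1.25% and 2.30% after thinning with at least 1. With a 0.5% floor it was 2.79% in YO2.

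For the named genes, 1979 values kept their direction and call against gate-negative cells, 443 lost the call, 32 gained one and 19 turned, and against interferon neutrophils 2159, 309, 104 and 14. Without the 5% of cells with most UMIs the log2 difference turned for Ccl17 (-4.33), Calr (-0.030), Plpp3 (-3.35, and -3.54 against interferon neutrophils) and Cd86 (-1.39 and -0.81). Plpp3 also turned with at least 5 gate UMIs (-5.57 and -5.78), and Cd86 without dendritic-marker cells (-1.51 and -1.04, or -1.69 and -1.10 with the YO1 sum). Hmox1 turned with 2 classes (0.048 and 0.34). With the YO1 sum in place of the YO2 sum the differences, against gate-negative and then interferon cells, were -0.39 and -0.070 for Cd80, 1.59 and 1.65 for Hmox1, -0.42 and -0.78 for Il1r2, -0.28 and -0.28 for Nfkbid, -0.083 and -0.20 for Ptgs2, -1.13 and -1.08 for Slc3a2, -0.50 and -0.32 for Vegfa, and -12.71 and -12.52 for Pgam1, which had no UMI there. Against gate-negative cells alone Ncf1 (-0.023), Slfn5 (0.46) and Wfdc17 (0.73) turned. For 25 and 28 genes with no UMI in YO1 no value could be given. The cause of these changes was not tested.

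Some alternatives were not run. With a 5% floor the sums fell under 30 cells, with 2 classes and no YO1 sum no residual degrees of freedom remained, and the split by leading gate gene had YO1 sums under 20 cells. The replicate numbers pair sums of 1 library, so the block stands in every other fit. The alternatives with the YO1 sum, without dendritic-marker cells and with the 0.5% floor were chosen after seeing the data. Depth limits YO1 most, where 1 UMI is 42.9 CPM.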

Other observations

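Beyond the lists and the largest differences, several genes were high in most activated neutrophils. They were picked after their values were seen, from a larger set of genes called higher with a UMI in more than 55 of the 110 cells of YO2. Pim1, a kinase that promotes survival, was at 5057 CPM in YO1 and 11563 CPM in YO2 against 2091 and 2941 CPM in gate-negative neutrophils, with UMIs from 109 cells of YO2, and rose by 1.51 ± 0.24 (SE) on the log2 scale (edgeR, Benjamini-Hochberg adjusted p = 0.00095). Tgm2, a transglutaminase, was at 429 and 1241 CPM against 115 and 118 CPM and rose by 2.90 ± 0.21 (edgeR, adjusted p = 6.5e-07). Ifrd1, a transcriptional coregulator, was at 257 and 841 CPM against 61.5 and 55.8 CPM, and Tgif1, a homeobox repressor, at 429 and 752 CPM against 62.9 and 78.2 CPM. Marcksl1, an actin-binding protein, was at 4629 and 2065 CPM against 323 and 345 CPM, and G0s2, an inhibitor of lipolysis, at 1629 and 2473 CPM against 708 and 562 CPM. All 6 were higher in both pools, which does not hold for the whole set. Cox17, Coq10b and Cnbp were seen in 65, 61 and 58 cells of YO2 but were not higher in level in YO1.

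Siglecf, a sialic acid-binding lectin, is a marker of eosinophils and was chosen after its values were seen. It was at 204 CPM in YO2 against 35.2 CPM, with 48 UMIs from 36 cells, and rose by 2.18 ± 0.28 on the log2 scale (edgeR, adjusted p = 0.00017). In YO1 it had no UMI, where a count of 0 allows 129 CPM, against 26.4 CPM. Of the other eosinophil markers, Ccr3 had 4 UMIs from 4 cells, and Epx, Prg2, Il5ra, Alox15, Ear2 and Ear6 were at 0 in the activated neutrophils of YO2.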
